A study of Homo sapiens with 4 samples.

Results

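The nuclear-encoded respiratory chain and ATP synthase were followed here as 81 genes of 26364 rows in the count table of SHMT2-knockdown and control colorectal cancer cells. Members were taken by the start of their symbol (NDUFA, NDUFB, NDUFC, NDUFS and NDUFV, SDHA to SDHD, UQCR, CYC1, COX4 to COX8, and ATP5) and by a level of 10 or more counts in 2 or more libraries. Of 110 rows with such a symbol, 11 assembly factors, 6 pseudogenes, 11 genes with lower counts and NDUFA4L2, which overlaps SHMT2, were left out. The 81 members comprised 76 subunits, with 37 in complex I, 4 in complex II, 9 in complex III, 12 in complex IV and 14 in complex V. The 5 other rows match the start of a symbol but were not counted as subunits.

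Complexes I to IV pass electrons from NADH and succinate to oxygen, all but complex II pump protons across the inner mitochondrial membrane, and complex V, the ATP synthase, uses the returning protons to make ATP. Most subunits are encoded in the nucleus and imported, whereas a few central subunits are made inside mitochondria from mitochondrial DNA. SHMT2, the mitochondrial serine hydroxymethyltransferase, converts serine to glycine and supplies one-carbon units to folate inside the mitochondrion. In colorectal tumors, as in other proliferating cells, respiration also regenerates the NAD+ and supplies the aspartate that growth needs.

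RNA was sequenced from SW480 and SW620, human lines derived from a primary colon adenocarcinoma and from a lymph node metastasis of the same patient. Each line gave 1 library labelled SHMT2 knockdown and 1 labelled control. In the methods of the study the knockdown comes from a doxycycline-inducible short hairpin RNA carried by a lentiviral TET-ON vector, and the results text names control shRNA cells as the comparison, while the sample labels say only control. Which hairpin was sequenced and whether the controls received doxycycline are not given in the sources used here.

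The libraries held 5530129 to 13774288 counts. SHMT2 fell from 277 to 30.9 CPM (counts scaled to a common library size and corrected for composition) in SW480 and from 687 to 47.5 CPM in SW620, which left 11.2% and 6.92% of the control level. Summed over 10 markers of colorectal epithelium the libraries held 5392 to 10482 CPM, most of it from the keratins KRT8, KRT18 and KRT19. KRT20 and LGALS4 were at 0 to 15 counts in each of the 4 libraries. In SW480, VIL1 was at 1 to 2 counts and CDH17 at 0 to 1, and CDH17 was at 13 to 25 counts in SW620. The summed levels of 6 fibroblast markers (20.3 to 30.4 CPM), 6 immune markers (5.27 to 11.5 CPM) and 4 endothelial markers (0.732 to 2.41 CPM) were low. A cell line and treatment with a single library has no replicate culture, so the p-values below rest on a spread shared across genes, with 1 residual degree of freedom.

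The 76 subunits together took about 1% of all counts. Their summed level was 9676 CPM in SW480 control, 9933 CPM in SW480 knockdown, 10932 CPM in SW620 control and 11097 CPM in SW620 knockdown cells. Of the 76 subunits, 74 stood at 10 CPM or more in every library, and the lowest value of any subunit was 3.02 CPM, for NDUFC2 in SW480 control. Levels per kilobase used the longest transcript marked as principal in the annotation. On this scale ATP5B, the catalytic beta subunit of ATP synthase, was the highest, with a mean of 751 CPM per kilobase over the 4 libraries. COX6A1, COX8A, NDUFS5 and NDUFB9 followed at mean levels of 510, 374, 341 and 293 CPM per kilobase, and the median subunit of complex IV was at 124 to 143 CPM per kilobase against 53.1 to 65.0 for complex I. These ranks depend on the annotated length, which for SDHC was 13566 bases, and SDHC was at 5.80 CPM per kilobase.

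**Figure D1:**
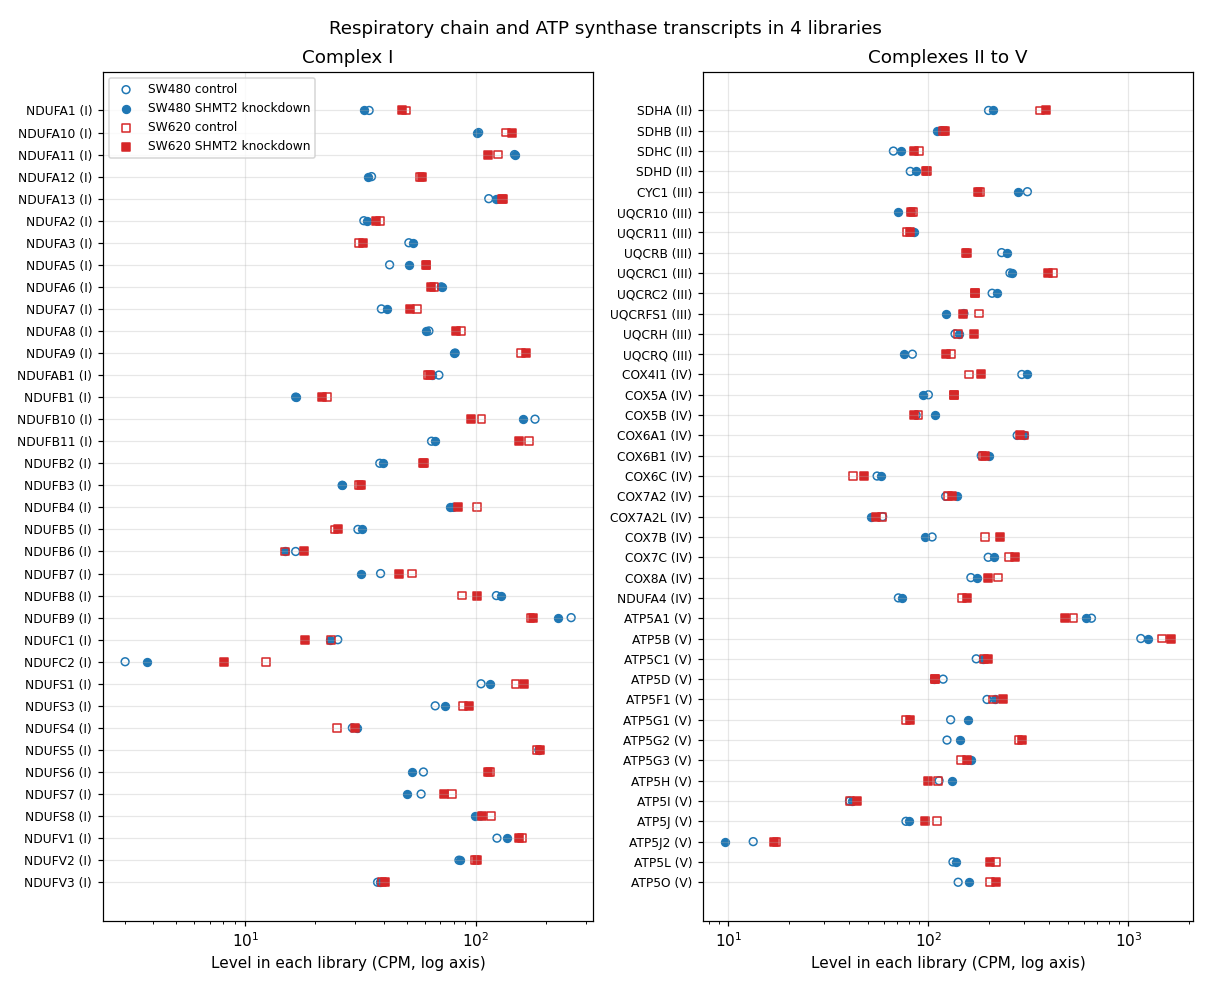
Level of 75 of the 76 subunit genes in the 4 libraries, in CPM on a log axis, with complex I on the left and complexes II to V on the right. Open symbols are controls, filled symbols are SHMT2-knockdown cells, circles are SW480 and squares are SW620. Filled and open symbols of a line lie close together for nearly every gene, and the wider gaps, as for NDUFB11, ATP5G2 or COX4I1, lie between the lines.

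Nuclear respiratory factor 1 (NRF1) and ETS-family factors such as GABPA are known regulators of respiratory genes, and the letters of their binding motifs were searched on both strands of promoters, taken as 250 bases before to 50 bases after the annotated start (RefSeq, GRCh38.p14). A promoter was found for 63 of the 76 subunits. The NRF1 motif (GCGCA, any base, then GCGC) was present in 15 of these 63 (23.8%) and in 8.58% of 15843 protein-coding promoters of the same length. The ETS motif CCGGAAG was present in 19 (30.2%) and in 14.2% of all promoters, and the YY1 motif AAGATGGCG in 8 (12.7%) and in 2.74%. CCAAT was present in 19 (30.2%) and in 36.4% of all promoters. Of the 11 complex IV promoters, 0 held the NRF1 letters and 5 held the ETS letters, whereas 4 of 7 complex III promoters held the NRF1 letters. A match is a description of the sequence and not evidence of binding, and overlaps between motifs were not removed.

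The stretches shown here lie before the annotated start of 4 subunits that illustrate these matches, and end where the GENCODE gene begins. Capitals mark the NRF1 letters in NDUFA9, SDHA and SDHD and the ETS letters in COX5B. SDHA, the flavoprotein of complex II, is shown because its promoter held 4 copies of the NRF1 letters at regular steps of 49 bases, of which 2 lie in the stretch shown.
SDHA promoter, chr5:218070-218240, plus strand: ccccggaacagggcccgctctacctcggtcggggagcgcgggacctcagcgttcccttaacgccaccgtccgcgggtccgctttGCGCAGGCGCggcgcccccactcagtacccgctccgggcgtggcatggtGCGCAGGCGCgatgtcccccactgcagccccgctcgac
SDHD promoter, chr11:112086623-112086772, plus strand: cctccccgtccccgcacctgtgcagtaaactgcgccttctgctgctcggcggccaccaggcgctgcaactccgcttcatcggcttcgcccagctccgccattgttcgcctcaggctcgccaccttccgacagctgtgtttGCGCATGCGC
NDUFA9 promoter, chr12:4648864-4649094, plus strand: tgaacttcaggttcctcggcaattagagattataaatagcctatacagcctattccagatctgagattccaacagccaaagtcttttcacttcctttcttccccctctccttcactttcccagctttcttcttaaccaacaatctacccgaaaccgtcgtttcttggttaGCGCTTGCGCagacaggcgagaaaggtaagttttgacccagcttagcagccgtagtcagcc
COX5B promoter, chr2:97645812-97646039, plus strand: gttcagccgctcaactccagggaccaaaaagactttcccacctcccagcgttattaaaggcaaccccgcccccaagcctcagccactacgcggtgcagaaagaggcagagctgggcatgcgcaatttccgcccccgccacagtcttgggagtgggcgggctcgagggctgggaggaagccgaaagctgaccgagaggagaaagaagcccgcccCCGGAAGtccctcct

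The remaining SDHA copies, the ETS match of SDHD and the single NRF1 match of UQCRFS1 lie within the GENCODE gene, and are given with 10 bases on each side and the match in capitals. UQCRFS1, the Rieske iron-sulfur protein of complex III, is shown because it had the lowest unadjusted p of any subunit in the knockdown comparison.
SDHA site 68 bases before the start, chr5:218242-218271, plus strand: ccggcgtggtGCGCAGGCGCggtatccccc
SDHA site 19 bases before the start, chr5:218291-218320, plus strand: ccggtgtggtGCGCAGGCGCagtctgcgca
SDHD site 77 bases before the start, chr11:112086786-112086812, plus strand: cgcctctcgaCTTCCGGttcacccagc
UQCRFS1 site 31 bases before the start, chr19:29213163-29213192, minus strand: gcgcctcctcGCGCCTGCGCcgtggttgga

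The first comparison asked whether respiratory chain transcripts differed between SHMT2-knockdown and control cells. In the edgeR quasi-likelihood fit with cell line as a term, 0 of 81 members were lower and 0 higher at an adjusted p under 0.05. Of all 14024 genes, 1.17% passed as lower and 0.492% as higher. At shares this small, an absence of calls among 81 members says little. Without adjustment, 1 of 81 members (1.23%) had a p of 0.05 or below, against 9.06% of all genes. DESeq2 called 0 members, and of all genes it called 0.0784% lower and 0.0143% higher, so its count says little about the members. The smallest adjusted p of any member was 0.335. The median knockdown difference over the 81 members was 0.02 on the log2 scale, with quartiles of −0.06 and 0.08, and the median of all genes was 0.01, with quartiles of −0.13 and 0.14.

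All 76 subunits lay within 0.5 of 0 in log2 knockdown difference. The approximate 95% interval of the fold difference stayed inside 1.5-fold in either direction for 73 of the 76, and the exceptions NDUFC1, NDUFC2 and ATP5J2 were among the lower-count subunits. The median standard error of a subunit was 0.123 on the log2 scale, and differences of single genes inside such intervals could not be told from 0 in this fit, whose spread is shared across genes.

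Within lines, 19 of 81 members (23.5%) were lower in both knockdown libraries than in their controls, against 24.7% of all genes, and 32 (39.5%) were higher in both, against 27.0%. Neither count carries a test. Of the 76 subunits, 29 had differences of opposite sign in the lines. For 13 subunits the SW480 and SW620 differences lay more than 2 counting errors apart, a margin that leaves out the spread between cultures.

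**Figure D2:**
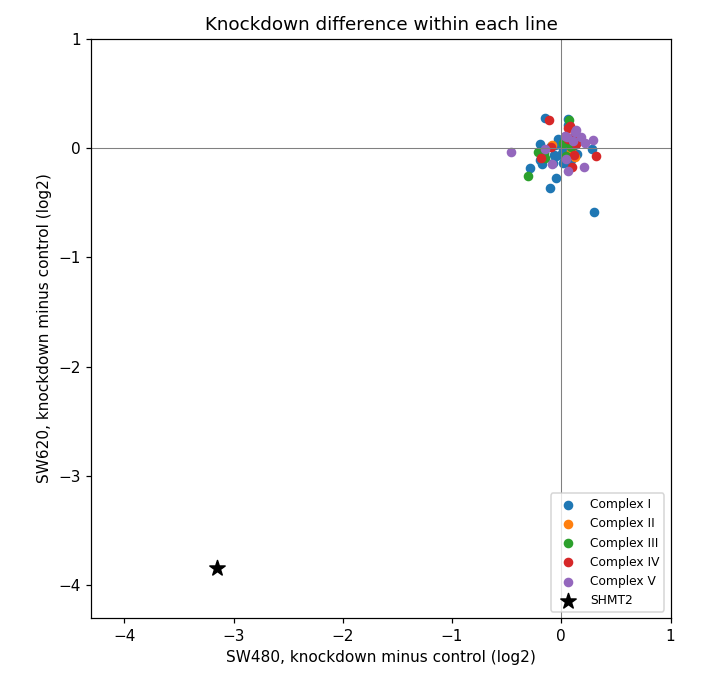
Knockdown minus control in SW480 (horizontal axis) and SW620 (vertical axis), in log2 CPM, for 75 of the 76 subunits colored by complex and for SHMT2 (star). Subunits cluster around 0 in both lines, while SHMT2 lies at −3.15 in SW480 and −3.85 in SW620.

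Complex I, the NADH dehydrogenase, had a median log2 knockdown difference of −0.01 over 37 subunits, with 19 below and 18 above 0. NDUFV1, which binds NADH and its flavin, stood at 123.2 and 136 CPM in SW480 control and knockdown cells and at 159 and 153 CPM in SW620 control and knockdown cells. NDUFS1, the large iron-sulfur subunit, stood at 105 and 115 CPM in SW480 and at 148 and 161 CPM in SW620, and NDUFS7, which holds the last iron-sulfur cluster before ubiquinone, at 57.8 and 50.5 CPM in SW480 and at 78.4 and 72.5 CPM in SW620. The knockdown value of NDUFS7 was thus the lower in each line and that of NDUFS1 the higher, and their fitted differences of −0.15 (standard error 0.132) and 0.12 (standard error 0.119) did not pass the test.

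NDUFC1, an accessory subunit of the membrane arm, had the lowest fitted difference of complex I among subunits with at least 50 counts in every library. It stood at 25.2 and 23.4 CPM in SW480 and at 23.4 and 18.2 CPM in SW620, with a fold difference of 0.850 (95% interval 0.666 to 1.08, edgeR adjusted p = 0.837). The interval included 1.

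Complex II, the succinate dehydrogenase, is the only complex that also works in the tricarboxylic acid cycle and has no mitochondrially encoded subunit. The catalytic SDHA stood at 199.9 and 211 CPM in SW480 control and knockdown cells and at 362 and 385 CPM in SW620. SDHB, its iron-sulfur subunit, stood at 117 and 110.1 CPM in SW480 and at 119 and 122 CPM in SW620. The membrane anchors were SDHC, at 66.9 and 72.9 CPM in SW480 and 90.1 and 84.9 CPM in SW620, and SDHD, at 81.2 and 86.3 CPM in SW480 and 98.9 and 96.9 CPM in SW620. The 4 fitted knockdown differences ran from −0.03 for SDHB to 0.08 for SDHA, each smaller than its standard error. SDHAP1, SDHAP2 and SDHAP3, transcribed copies of SDHA, held 17 to 389 counts per library, and how reads were divided between them and SDHA is not given in the sources used here.

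In complex III, which oxidizes ubiquinol and reduces cytochrome c, the median difference over 9 subunits was −0.02. UQCRFS1 was the single member with an unadjusted p below 0.05. It stood at 150.4 and 122 CPM in SW480 control and knockdown cells and at 178 and 149 CPM in SW620, so the knockdown value was the lower in each line. The edgeR fold difference was 0.824 (95% interval 0.703 to 0.967), and its adjusted p over all genes was 0.335. UQCRH, the hinge protein beside cytochrome c1, was at the upper end with 136 and 143 CPM in SW480 and 141 and 169 CPM in SW620 (fitted log2 difference 0.16, standard error 0.118, edgeR adjusted p = 0.802). Its near-identical copy UQCRHL held 4.39 to 7.28 CPM, and reads of the pair may be shared.

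CYC1, the cytochrome c1 subunit, stood at 313 and 279.8 CPM in SW480 and at 182 and 176 CPM in SW620. The core proteins UQCRC1 and UQCRC2 had fitted log2 knockdown differences of −0.02 and 0.05. Cytochrome c itself (CYCS), the carrier between complexes III and IV, stood at 230 and 211 CPM in SW480 and at 209 and 238 CPM in SW620, so that the knockdown library was the lower in SW480 and the higher in SW620.

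Complex IV, cytochrome c oxidase, had a median log2 difference of 0.08 over 12 subunits, and 9 of the 12 were above 0. COX4I1, the largest nuclear-encoded subunit, stood at 293 and 309.8 CPM in SW480 and at 160.2 and 184 CPM in SW620 (fitted log2 difference 0.14, standard error 0.111, edgeR adjusted p = 0.860). COX5B, a zinc-binding subunit, stood at 86.8 and 108 CPM in SW480 and at 89.2 and 84.6 CPM in SW620. The knockdown libraries were thus higher for COX4I1 in both lines and for COX5B in SW480 alone. COX7B had the knockdown differences that lay furthest apart between the lines in units of counting error, at 104.4 and 96.7 CPM in SW480 and 191 and 229 CPM in SW620. COX7A2L, a relative of subunit 7A that joins complexes III and IV into supercomplexes, had the lowest fitted difference of complex IV at −0.14 (standard error 0.134, edgeR adjusted p = 0.911).

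Complex V, the ATP synthase, had a median log2 difference of 0.08 over 14 subunits, with 9 above 0. The head of the enzyme is built from alpha (ATP5A1) and beta (ATP5B) subunits. ATP5A1 stood at 654 and 616 CPM in SW480 and at 532 and 482 CPM in SW620, and ATP5B at 1154 and 1256 CPM in SW480 and at 1477 and 1637 CPM in SW620. ATP5A1 was the lower and ATP5B the higher in the knockdown library of each line, with fitted log2 differences of −0.11 (standard error 0.0987) and 0.14 (standard error 0.0895) that did not pass the test. ATP5C1, the rotating gamma subunit, had a fitted difference of 0.08. The ends of the complex were ATP5G1, a subunit c gene, at 0.19 (standard error 0.123, edgeR adjusted p = 0.758), and ATP5J2, the f subunit of the membrane part, at −0.23 (standard error 0.218, edgeR adjusted p = 0.911). ATP5E, the epsilon subunit, was among the rows below the count minimum with 0 to 2 counts per library, and its copy ATP5EP2 also held 0 to 2. The epsilon subunit is needed by every ATP synthase, how its reads were counted is not given in the sources used here, and these counts are not read as its level.

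Several subunits exist as paralogs that replace each other in particular tissues. The tissue-restricted forms COX4I2, COX6A2, COX6B2, COX7A1, COX7B2 and COX8C held 0 to 6 counts per library, and the widely expressed partners held 642 to 3871. COX6A2 and COX7B2 had 0 counts in each library, which allows a share of up to 0.0775% to 0.183% of the subunit 6A counts and 0.0972% to 0.467% of the subunit 7B counts, depending on the library. These limits and the intervals on shares cover counting error only. COX7A2 made up 67.2% to 72.7% of the subunit 7A counts, and most of the rest came from COX7A2L. The shares are not corrected for annotated length, which was 914 bases for COX7A2 and 3056 for COX7A2L.

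Subunit c forms the rotor ring of ATP synthase and is encoded by ATP5G1, ATP5G2 and ATP5G3, whose mature proteins are identical. In SW480 control cells ATP5G1 took 31.4% (95% Wilson interval 29.99 to 32.9), ATP5G2 30.1% (28.7 to 31.6) and ATP5G3 38.5% (37.0 to 40.0) of the subunit c counts. In SW480 knockdown cells the shares were 33.9%, 30.98% and 35.2%. In SW620 control cells they were 15.3% (14.0 to 16.7), 55.97% (54.1 to 57.8) and 28.8% (27.1 to 30.5), and in SW620 knockdown cells 15.3%, 55.2% and 29.5%. ATP5G2 thus had the largest count share in SW620 under both treatments, with shares far outside the intervals of SW480. These shares are not corrected for annotated length, which was 614 bases for ATP5G1, 1950 for ATP5G2 and 5484 for ATP5G3. Per kilobase, ATP5G1 was the highest in SW480 control at 210 CPM, with ATP5G2 at 63.5 and ATP5G3 at 28.9. In SW620 control the levels were 126, 145 and 26.5 CPM per kilobase. Within a line the widest gap between knockdown and control was that of ATP5G3 in SW480, from 38.5% (37.0 to 40.0) to 35.2% (33.5 to 36.9), and the shares in SW620 lay within each other's intervals.

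**Figure D3:**
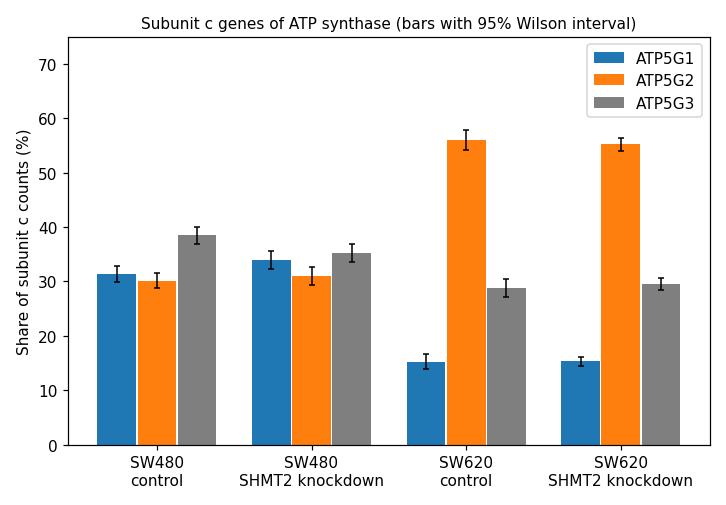
Share of the subunit c counts from ATP5G1, ATP5G2 and ATP5G3 in each library, in percent, with 95% Wilson intervals that cover counting error only. ATP5G2 takes 55.97% and 55.2% in the SW620 libraries against 30.1% and 30.98% in the SW480 libraries.

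The design also sets SW620 against SW480, with treatment as a term. In this comparison edgeR placed 13 of 81 members (16.05%) lower and 35 (43.2%) higher in SW620 with an adjusted p under 0.05, and of all genes 31.3% lower and 32.3% higher. No test of the difference between these shares was made. DESeq2 called 10 members lower and 19 higher, and of all genes 20.2% lower and 19.1% higher. The median log2 difference was 0.18 for the 81 members and 0.20 for the 76 subunits, beside 0.01 for all genes, and with upper-quartile scaling it was 0.10 for the members beside −0.06 for all genes. In both treatments 51 members (63.0%) were higher in SW620, against 44.1% of all genes, and 21 (25.9%) were lower, against 42.8%. The knockdown and control libraries of a line are not replicate cultures, and library and line cannot be told apart.

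**Figure D4:**
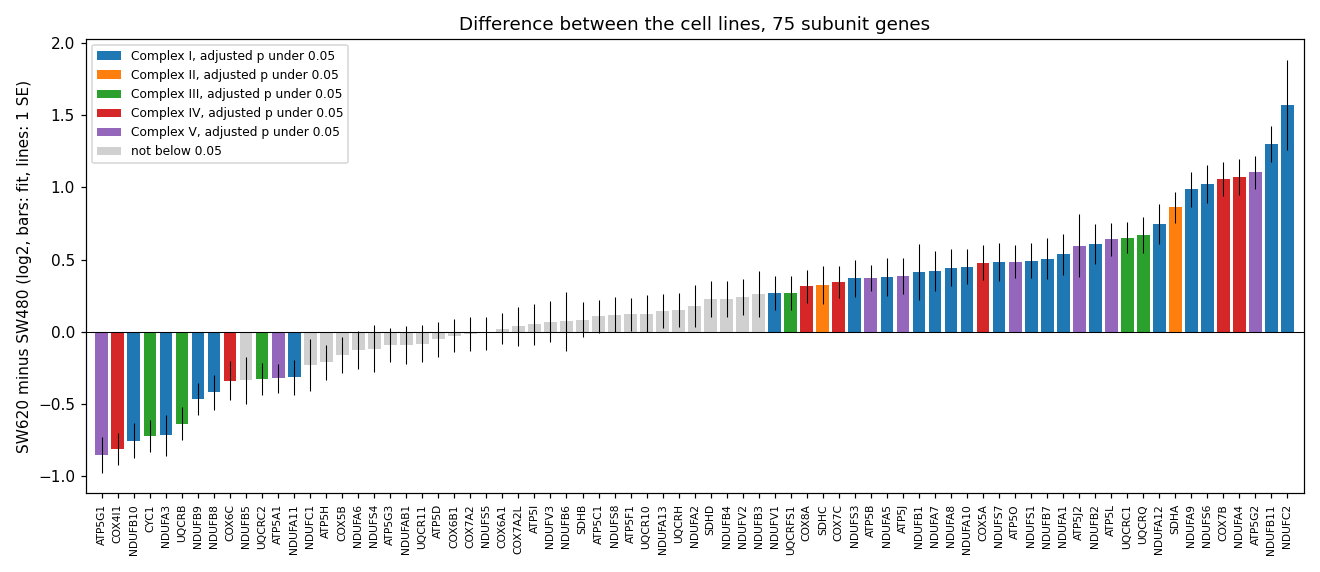
Fitted log2 difference, SW620 minus SW480, of 75 of the 76 subunits in rising order, with bars for the estimate and lines for 1 standard error. Colors give the complex of subunits with an adjusted p under 0.05 and grey marks the rest. The bars run from −0.86 for ATP5G1 to 1.57 for NDUFC2, with 33 colored bars above 0 and 12 below.

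In complex I, 17 of 37 subunits (45.9%) were higher and 5 (13.5%) were lower in SW620, beside 32.3% and 31.3% of all genes. The 7 core subunits all had a fitted difference above 0, from 0.12 for NDUFS8 to 0.49 for NDUFS1, and 4 of them passed the test (NDUFV1, NDUFS1, NDUFS3 and NDUFS7). The call for NDUFV1 was lost under each other scaling, filter and test that was fitted, and that for NDUFS7 with DESeq2. NDUFB11, an X-linked subunit of the membrane arm, stood at 64.1 and 66.7 CPM in SW480 control and knockdown cells and at 169 and 154 CPM in SW620. It rose 2.47-fold (95% interval 2.08 to 2.92, edgeR adjusted p = 2.06e-24). NDUFC2 had the widest fitted difference of all subunits, 2.97-fold (95% interval 1.94 to 4.56, edgeR adjusted p = 1.86e-06), from 3.02 and 3.77 CPM in SW480 and 12.3 and 8.09 CPM in SW620, or 25 to 109 counts per library. The log2 difference of NDUFC2 was 1.95 between the controls and 1.06 between the knockdown libraries. Between the latter, COX7B (1.24), NDUFB11 (1.20), NDUFA4 (1.08) and NDUFS6 (1.08) differed more. On the lower side NDUFB10, another membrane arm subunit, stood at 180.1 and 159.5 CPM in SW480 and at 105 and 95.5 CPM in SW620, 0.592-fold (95% interval 0.503 to 0.697, edgeR adjusted p = 1.15e-09). Accessory subunits of the same membrane arm thus lay at both ends.

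SDHA, with the values given above, rose 1.82-fold in SW620 (95% interval 1.57 to 2.10, edgeR adjusted p = 9.33e-15). SDHC rose 1.25-fold (edgeR adjusted p = 0.0209), a call lost with DESeq2, with scaling by library totals or upper quartiles and without a count filter, and SDHB (log2 difference 0.08) and SDHD (0.22) did not pass the test. In complex III, 3 of 9 subunits (33.3%) were higher and 3 (33.3%) were lower, near the 32.3% and 31.3% of all genes. UQCRQ, a small ubiquinone-binding subunit, stood at 83.2 and 75.2 CPM in SW480 and at 129.8 and 122 CPM in SW620, and rose 1.59-fold (95% interval 1.34 to 1.88, edgeR adjusted p = 2.75e-07). CYC1 fell to 0.605-fold (95% interval 0.521 to 0.704, edgeR adjusted p = 3.13e-10). The core proteins parted, with UQCRC1 higher (256 and 263 CPM in SW480, 418 and 397 CPM in SW620) and UQCRC2 lower (208 and 221 CPM in SW480, 170.4 and 172 CPM in SW620).

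In complex IV, 5 of 12 subunits (41.7%) were higher and 2 (16.7%) were lower, beside 32.3% and 31.3% of all genes. NDUFA4, once assigned to complex I and now counted with complex IV, stood at 70.8 and 74.0 CPM in SW480 and at 148 and 157 CPM in SW620, and rose 2.10-fold (95% interval 1.78 to 2.49, edgeR adjusted p = 3.98e-17). COX7B rose 2.08-fold (95% interval 1.77 to 2.45, edgeR adjusted p = 4.65e-18). COX4I1 fell to 0.570-fold (95% interval 0.490 to 0.663, edgeR adjusted p = 1.68e-12). COX5A, the partner of COX4I1 in the matrix-facing part, was higher by 0.48 on the log2 scale, while COX5B did not pass the test.

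In complex V, 6 of 14 subunits (42.9%) were higher and 2 (14.3%) were lower, beside 32.3% and 31.3% of all genes. ATP5G2 rose 2.15-fold, from 124 and 144 CPM in SW480 to 282.5 and 292.5 CPM in SW620 (95% interval 1.84 to 2.51, edgeR adjusted p = 3.66e-21). ATP5G1 fell to 0.553-fold, from 129 and 158 CPM to 77.1 and 81.2 CPM (95% interval 0.467 to 0.654, edgeR adjusted p = 2.27e-11). ATP5G3 stood at 158 and 164 CPM in SW480 and at 145 and 156 CPM in SW620 and did not pass the test. Within the head, ATP5B was higher by 0.37 and ATP5A1 lower by 0.32 on the log2 scale, and ATP5C1 did not pass the test.

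To place the line differences along the chromosomes, each subunit was set beside the median difference of up to 25 tested genes on either side along its chromosome (GENCODE 29, GRCh38). Over the 76 subunits the line difference had a Pearson correlation of 0.66 and a Spearman correlation of 0.60 with that of the neighbours, and the knockdown difference a Pearson correlation of 0.09. These describe genes within the same 4 libraries, which are not independent replicates, and neighbourhoods of nearby subunits share genes. Of the 12 subunits called lower in SW620, 12 had neighbours with a median below 0, and of the 33 called higher, 23 had neighbours with a median above 0. In all, 56 of 76 subunits lay within the quartiles of their neighbours. Relative to the neighbours' median, 52 of 76 subunits were above it, with a median gap of 0.18 on the log2 scale. These counts and correlations were not computed for other genes, so they do not show whether the pattern is particular to the subunits.

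By chromosome, the 4 subunits on chromosome 8 (COX6C, CYC1, NDUFB9 and UQCRB) were all called lower in SW620, and the other 448 tested genes of that chromosome had a median of −0.40. Those on chromosome X (COX7B, NDUFA1 and NDUFB11) were all called higher, beside a median of 0.66 for 428 other genes. On chromosome 16 the subunits (COX4I1, NDUFAB1, NDUFB10 and UQCRC2) had a median of −0.54 with 3 of 4 called lower. The 638 other genes of that chromosome had a median of 0.04. The nearer neighbours had medians of −0.59 for COX4I1, −0.27 for NDUFB10, −0.08 for UQCRC2 and −0.05 for NDUFAB1. Of these subunits only NDUFB10 lay outside the quartiles of its neighbours. On chromosome 12 the median was 0.74 for 5 subunits, 4 of them called higher, and 0.10 for 732 other genes. The nearer neighbours had medians of 0.53 for ATP5B, 0.43 for NDUFA9 and −0.40 for COX6A1. On that chromosome only NDUFA12 lay outside the quartiles of its neighbours. CYC1 at −0.72 lay near its neighbours' median of −0.79, and COX7B at 1.06 near 0.84. SDHA at 0.86 and NDUFS6 at 1.02, both at one end of chromosome 5, had neighbours at 0.64 and 0.62. For the subunit c genes, ATP5G1 on chromosome 17 (log2 difference −0.86) had neighbours at −0.50, and ATP5G2 on chromosome 12 (1.104) had neighbours at 0.67. UQCRC1 (0.65, neighbours −0.06), NDUFA12 (0.74, neighbours −0.14) and NDUFA7 (0.42, neighbours −0.46) were higher where their neighbours were not. The copy number of these regions was not measured, and its part in the line differences was not tested.

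**Figure D5:**
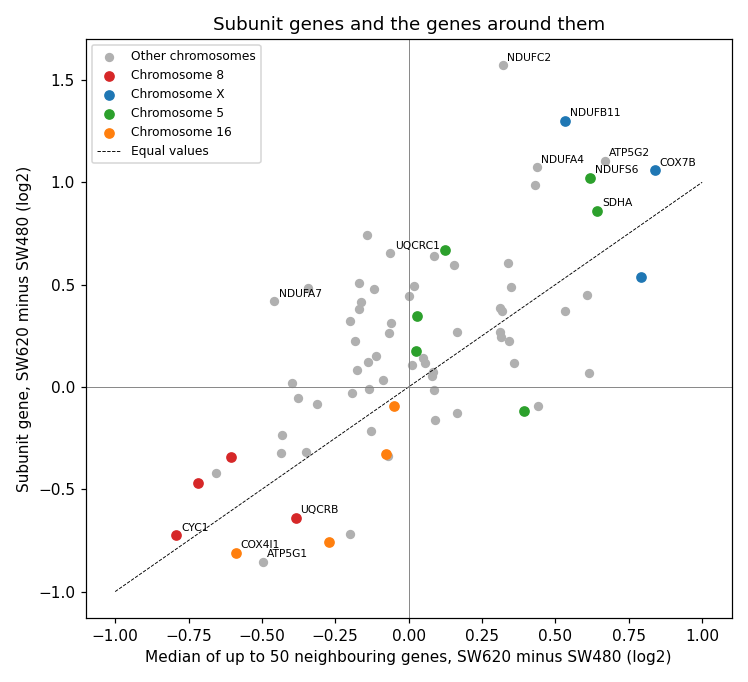
Fitted log2 difference, SW620 minus SW480, of 75 of the 76 subunits (vertical axis) against the median of up to 50 neighbouring genes (horizontal axis), with 4 chromosomes colored and the dashed line marking equal values. Subunits of chromosome 8 lie at the lower left and those of chromosome X at the upper right.

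Subunits with and without a promoter motif were close to each other in the knockdown. The median log2 knockdown difference was 0.03 for the 15 with the NRF1 letters and 0.02 for the 48 without, and 0.03 for the 19 with the ETS letters and 0.01 for the 44 without. In the line comparison the medians were 0.23 and 0.21 for NRF1, 0.15 and 0.25 for ETS, 0.40 and 0.22 for YY1 (8 with, 55 without) and 0.12 and 0.26 for CCAAT. For YY1 and CCAAT the knockdown medians were −0.02 and −0.01 with the letters and 0.03 without them.

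The proteins that build and regulate the chain were counted from separate lists. In the knockdown comparison 0 of 19 tested assembly factors of complex I, 0 of 4 of complex II, 0 of 6 of complex III, 0 of 20 of complex IV and 0 of 3 of complex V passed the edgeR test in either direction, and neither did any of 19 regulators of mitochondrial biogenesis. Of all genes 1.17% passed as lower and 0.492% as higher, so an absence of calls in lists of this size says little. Without adjustment 1 of the 52 assembly factors and 2 of the 19 regulators had a p of 0.05 or below, against 9.06% of all genes. DESeq2 called 0 in either list. TFAM, which packages and transcribes mitochondrial DNA, stood at 56.8 and 53.8 CPM in SW480 and at 184 and 178 CPM in SW620. Of 21 tricarboxylic acid cycle genes, edgeR called 1 lower and 0 higher, and DESeq2 called 0. The gene that fell was OGDH, the E1 subunit of 2-oxoglutarate dehydrogenase, which stood at 175 and 120.2 CPM in SW480 control and knockdown cells and at 184 and 130.3 CPM in SW620, with a log2 difference of −0.52 (standard error 0.118, edgeR adjusted p = 0.00189). The 13 mitochondrially encoded subunits were looked for by symbol, had no row in the count table and so could not be analysed.

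ATP5SL is also counted among the complex I assembly factors. Between the lines, 6 complex I assembly factors were higher and 2 lower in SW620, and for complex IV 8 were higher and 4 lower. For complexes II, III and V, 2, 3 and 1 assembly factors were higher and 0, 1 and 2 lower. In all, edgeR called 20 of 52 assembly factors higher and 9 lower, shares to be read beside the 32.3% and 31.3% of all genes, and DESeq2 called 16 in either direction, 0 of them in complex V. Of the 19 regulators 7 were higher and 4 lower, beside the same shares of all genes. TFAM was among the higher, with a log2 difference of 1.71 (standard error 0.126, edgeR adjusted p = 1.14e-40). So was PPARGC1A (5.49), at 0 to 46 counts per library. The 4 lower were PPARGC1B (−1.51), PPRC1 (−0.75), C10orf2 (−0.53) and POLRMT (−0.39). Of the 21 tricarboxylic acid cycle genes 10 were higher and 4 lower, beside 32.3% and 31.3% of all genes.

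The 5 members that are no subunits were ATP5S and ATP5SL, the antisense RNAs NDUFA6-AS1 and NDUFB2-AS1, and the copy UQCRHL. ATP5S (2.60 to 8.17 CPM) and NDUFB2-AS1 (32.4 to 43.5 CPM) were higher in SW620, with edgeR adjusted p values of 0.000861 and 0.0185. ATP5SL (47.1 to 65.6 CPM) was lower (edgeR adjusted p = 0.0418). NDUFA6-AS1 had the widest knockdown difference of any member, −0.63 on the log2 scale with a standard error of 0.636, at 0.904 to 1.46 CPM. Strand use in the counting is not given in the sources used here, so reads of an antisense RNA and its partner gene cannot be told apart.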

How the data were processed

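RNA of SW480 and SW620 cells, with SHMT2 knockdown or control, was sequenced in 4 libraries from Illumina TruSeq RNA preparations. The authors deposited raw read counts per gene symbol, and the submitters' processing notes name Bowtie 0.12.2 and the build hg18 without saying what each was used for. The counting program, annotation and strand are not given in the sources used here. The methods also name a microarray, whereas the deposited values are whole-number counts.

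A minimum of 10 counts in 2 libraries left 14024 genes. The fit was edgeR's quasi-likelihood test (edgeR 4.0.16, R 4.3.3, TMM scaling, two-sided) with terms for line and treatment, and p-values were adjusted by Benjamini-Hochberg over all of them. Standard errors were taken from the estimate and its F statistic. Differences within a line used log2 CPM with a prior count of 2 and carry counting error only. DESeq2 1.42.0 was the alternative test. The cell line pairs the libraries, and across genes the SW480 libraries deviated together from the condition means (Pearson correlation 0.961). On simulated counts the edgeR fit recovered 79.8% of 198 genes changed by a log2 fold change of 1 among 13781, and 13 unchanged genes passed. The simulated counts took their spread from the fit to these data, so the recovery holds only for that spread. No smaller change was simulated, and every fitted knockdown difference of a subunit was smaller.

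Members, lists, motifs and the rule for named genes were chosen with earlier results of these data known. That rule took, in each complex, the ends of the knockdown comparison at 50 or more counts per library and of the called line differences, the 5 largest line differences, fixed core subunits, paralogs, and called genes of the related lists. Other subunits were named for their level, motif or chromosome after their values were seen. Genes of the related lists without a call in the knockdown comparison, such as TFAM, were also named outside that rule. One member entered every count and median but its own values are not reported here or drawn. Older symbols were matched through RefSeq synonyms. Positions and lengths are those of GENCODE 29 (GRCh38), and the authors may have used others. The length of a gene is that of its longest APPRIS principal transcript.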

Additional observations from a re-analysis of the deposited data

How the results depend on the processing

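Scaling by DESeq2's size factors, library totals or upper quartiles, other count filters, thinning to the smallest library, DESeq2's Wald test and counting subunits alone each left 0 members called in the knockdown comparison. In the main fit 1.17% of all genes passed as lower and 0.492% as higher, so these counts of 0 say little. Without the cell line term, the knockdown comparison again called 0 members, but also 0 of all genes. That fit too says little about the members. Without the treatment term, the line comparison called 12 members lower and 32 higher, against 13 and 35 in the main fit. The median knockdown difference was 0.020 with SW480 left out and 0.047 with SW620 left out, and lay between 0.010 (no count filter) and 0.037 under the other alternatives. The median line difference was 0.127 with library totals and 0.104 with upper quartiles, where the median of all genes moved from 0.01 to −0.04 and −0.06, and 0.170 to 0.234 when the control or the knockdown libraries were left out. DESeq2's Wald test called 19 members higher in SW620 and fewer genes overall. For single named members, 677 repeats were counted as unchanged and 23 lost the call, the latter being the line differences of UQCRFS1, NDUFV1, SDHC, COX8A, NDUFS7 and ATP5J2. The 677 include 35 for each leave-out of a line, of the control libraries or of the knockdown libraries. Those repeats give values without a test, so no call could be lost in them. In 29 of the 677 a difference that had not passed the test changed sign, 14 of them in the knockdown comparison (12 from leaving out a line, which turned 12 of the 35 named members, NDUFC2, COX7B and COX5B among them). With 1 library per line and treatment, spread between cultures was not measured.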
